A study of Mus musculus with 12 samples.

Results

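The genes described here encode the insulin-responsive glucose transporter of muscle and enzymes of glycolysis: Slc2a4, Hk1, Hk2, Pfkm, Fbp2, Aldoa, Pgam2, Eno3, Pkm and Ldha. They were chosen by name, as the rows of the count table that carry these symbols, and they make up 10 of its 22607 genes. RNA of tibialis anterior, a shin muscle of mostly fast-twitch fibres, was sequenced from C57BL/6 male mice of 13 weeks. The muscle carried a vector for either GFP, the control, or Crtc2, which serves the transcription factor Creb1 as a coactivator, and the mice were either fed ad libitum or taken through 3 rounds of alternate day fasting (ADF). This gives 4 groups of 3 libraries each, named here by diet and vector: fed GFP and ADF GFP, fed Crtc2 and ADF Crtc2. All groups had received a vector, so there is no muscle without transduction among them. The vector's promoter, the cells it reached and the hour of sampling within the fasting cycle are not given in the sources used here. Whether a group's libraries came from separate animals, and whether GFP and Crtc2 muscles shared animals, is not stated in the labels, so p-values measure no more than library-to-library spread, possibly of technical origin.

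Muscle takes up glucose mainly through GLUT4, the product of Slc2a4, which insulin and contraction move from vesicles inside the fibre to its surface. Hexokinases trap the sugar by phosphorylation, phosphofructokinase commits it to glycolysis, and the lower enzymes carry it to pyruvate and, in working fast fibres, to lactate. During fasting, muscle as a whole is known to shift from glucose toward fatty acids as fuel, and Fbp2, which runs the phosphofructokinase step backwards, serves the building of glycogen from lactate.

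Promoter sequences are shown for those 3 of the genes with a match to TGACG. Creb1 binds the element TGACGTCA and its shorter form TGACG, and the E-box CACGTG is a common element of metabolic genes. The sequences are RefSeq's on GRCm38.p6, each 250 bases that end at the base before the transcription start, written 5′ to 3′ on the gene's strand, with matches to these elements on either strand in capitals.
Fbp2, chr13:62858401-62858650, minus strand: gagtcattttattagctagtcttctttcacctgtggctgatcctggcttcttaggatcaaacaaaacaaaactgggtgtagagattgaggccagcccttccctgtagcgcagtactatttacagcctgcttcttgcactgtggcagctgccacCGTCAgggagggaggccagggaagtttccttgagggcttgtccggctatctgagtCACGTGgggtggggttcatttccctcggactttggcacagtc
Hk2, chr6:82774455-82774704, minus strand: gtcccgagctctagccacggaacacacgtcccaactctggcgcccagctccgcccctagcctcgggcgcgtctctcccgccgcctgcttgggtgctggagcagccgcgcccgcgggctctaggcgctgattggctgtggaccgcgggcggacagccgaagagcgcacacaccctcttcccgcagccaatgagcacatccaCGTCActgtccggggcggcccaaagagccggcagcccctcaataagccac
Ldha, the first of its listed starts, chr7:46845554-46845803, plus strand: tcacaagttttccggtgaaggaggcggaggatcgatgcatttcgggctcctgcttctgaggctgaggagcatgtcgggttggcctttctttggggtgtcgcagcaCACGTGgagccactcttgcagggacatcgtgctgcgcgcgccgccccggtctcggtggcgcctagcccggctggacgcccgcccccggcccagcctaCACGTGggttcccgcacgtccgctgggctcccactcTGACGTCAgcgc

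Fbp2 held TGACG on the opposite strand, its capitals beginning 97 bases before the start, and CACGTG at 42. Hk2 held TGACG, also on the opposite strand, at 50. Ldha held the whole TGACGTCA at 12, which contains the shorter form on both strands, and CACGTG at 145 and at 48. RefSeq promoters were matched for 9 of the 10 genes, all but Slc2a4, with 17 windows in all because some genes have several starts. TGACGTCA lay in 1 of these 17 windows against 1.55% of all 32851 promoter windows, TGACG in 4 against 17.8%, and CACGTG in 3 against 6.02%. The remaining matches were CACGTG in Pfkm, 136 bases before the first listed start, and TGACG in Ldha, 143 bases before the second. A match describes the letters in a window and is not evidence of binding.

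Total counts per library ranged from 24232450 to 34610417, and all 10 genes passed the filter on low counts that left 16007 genes for testing. Crtc2, the check of the vector, was higher in every Crtc2 library than in every GFP library of the same diet, with means of 67 ± 10 against 23.5 ± 5.97 counts scaled to library size (CPM, SD, n = 3) in fed muscle and 38.3 ± 6.06 against 19.8 ± 3.75 under ADF. These differences were 2.85-fold and 1.93-fold and did not pass the edgeR test after adjustment over all genes (adjusted p = 0.134 and 0.127). Fast-fibre markers, 10 genes such as Myh4 and Tnnt3, summed to between 106954 and 194423 CPM and slow-fibre markers to between 148 and 543 CPM, with no fast-fibre marker at 0 in any library. Among the 10 fast-fibre markers Atp2a1 rose and Mylpf fell under ADF with either vector, and among the 8 slow-fibre markers Tnnt1 fell. The labels' protocols name a pair of library kits without assigning them, so that a kit difference that followed the groups cannot be told apart from diet or vector. In these bulk samples, fewer cells of a type and less RNA per cell cannot be told apart.

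Within fed GFP muscle the abundances of the enzymes ran over several orders of magnitude. Per kilobase of exon, Aldoa, the aldolase of muscle, stood at 9115 ± 1827 CPM per kb (SD, n = 3) and Eno3, the muscle enolase, at 6838 ± 958, and their ranges overlapped. Pgam2, the muscle phosphoglycerate mutase, followed at 3940 ± 381, below both without overlap. Pfkm, the muscle phosphofructokinase, at 1430 ± 235, Ldha, the lactate dehydrogenase subunit of fast fibres, at 935 ± 253, and Pkm, pyruvate kinase, at 856 ± 126 formed a middle group in which Ldha overlapped both neighbours. Slc2a4 stood at 180 ± 34.1, Hk2, the insulin-regulated hexokinase of muscle, at 52.9 ± 7.83, Fbp2 at 27.2 ± 14.3 and Hk1, the hexokinase found in most tissues, at 1.43 ± 0.323, with no overlap between neighbours among these last 4. In ADF Crtc2 muscle the mean of Fbp2 stood above that of Hk2, at 82.1 ± 26.3 against 69.6 ± 6.96 CPM per kb. Their ranges overlapped, at 54.5 to 107 and 61.7 to 74.8. With the length of the principal transcript in place of all annotated exons, the top 3 and the bottom 4 in fed GFP muscle kept their order, and Pkm, Ldha and Pfkm lay at 1761, 1753 and 1660 CPM per kb.

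Together the 10 genes took 4.71 to 6.51% of all counts in a library, with a median of 5.72%. Their share was 5.86 ± 0.645% in fed GFP, 5.69 ± 0.74% in fed Crtc2, 5.07 ± 0.557% in ADF GFP and 5.77 ± 0.23% in ADF Crtc2 muscle. All 4 groups overlapped, and Aldoa and Eno3 supplied most of the counts. The level of the abundant members moved with the library as well as with its group: their summed CPM was lowest in fed Crtc2 replicate 2 at 41112, ADF GFP replicates 2 and 3 at 44421 and 44962, and fed GFP replicate 3 at 45176. The same 4 libraries had the 4 lowest sums of fast-fibre markers, at 106954, 112972, 125916 and 122214 CPM, and the 4 highest normalization factors, 1.19, 1.06, 1.07 and 1.16. The part of fibre content or of scaling in the results below was not tested.

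**Figure D1:**
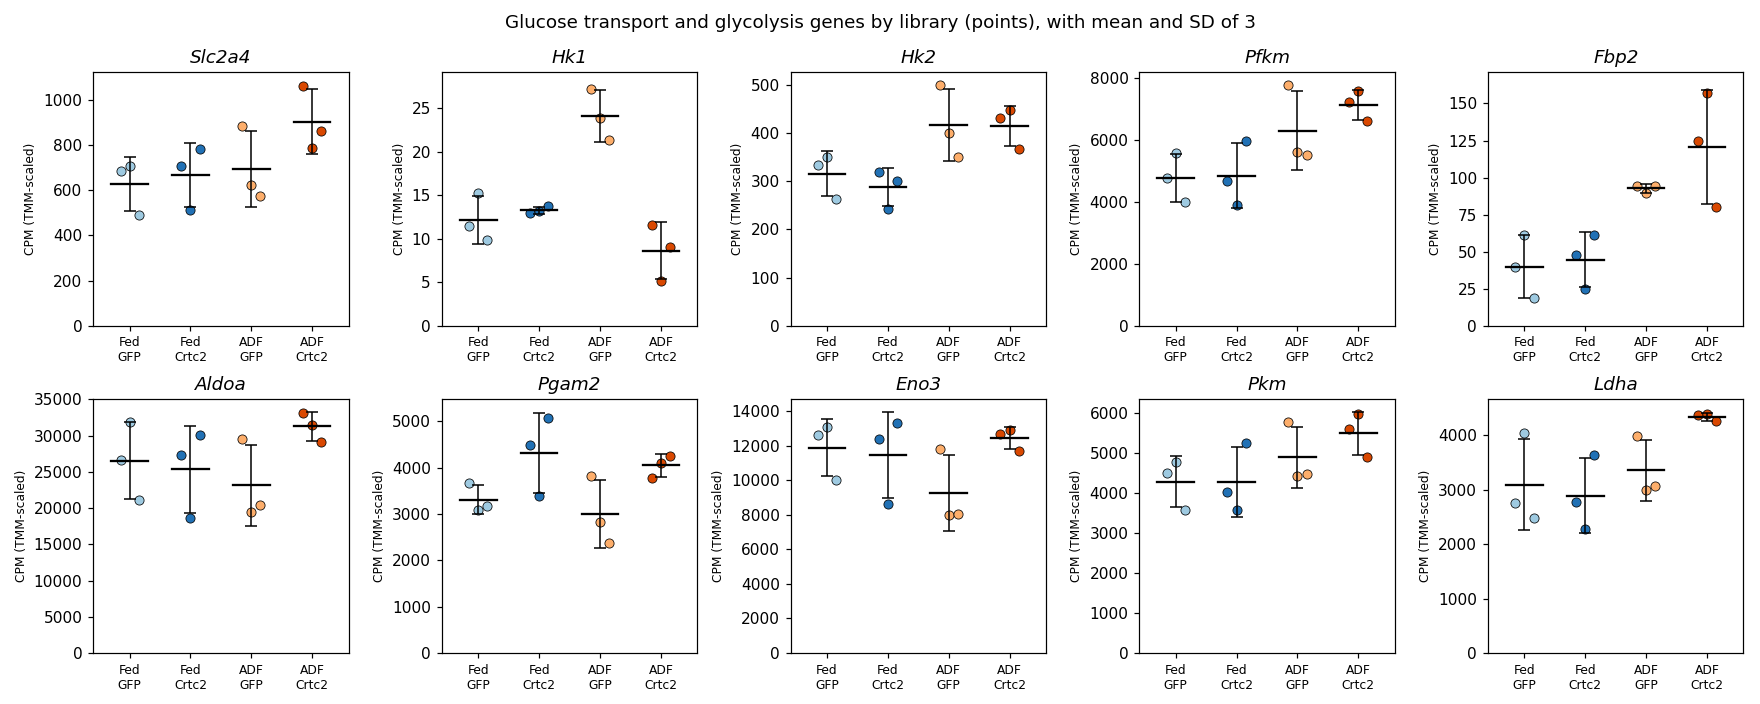
Each panel gives 1 gene, with CPM on TMM-scaled library sizes on the y axis from 0 and the 4 groups on the x axis. Points are libraries, the bar is the mean and the whiskers the SD of 3. Fbp2 lies between 18.9 and 61.6 CPM in the 6 fed libraries and between 80.1 and 157 in the 6 ADF libraries, and the mean of Hk1 is highest in ADF GFP and lowest in ADF Crtc2 muscle.

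The first pair of comparisons asks how ADF changed these genes, once in GFP muscle and once in Crtc2 muscle. Fbp2 was the member with the largest fold, higher under ADF with either vector, and was alone in passing the test, in Crtc2 muscle. In TMM-scaled CPM, Slc2a4, Hk2, Pfkm and Ldha overlapped between the diets in GFP muscle and lay above feeding without overlap in Crtc2 muscle. These differences did not pass the test with either vector, and the overlaps moved with the scaling. As a percent of all counts, Pfkm separated upward in GFP muscle too (0.462 to 0.57 fed, 0.587 to 0.69 under ADF). Hk2 then separated in GFP muscle (0.0304 to 0.036 against 0.0373 to 0.0443) and overlapped in Crtc2 muscle (0.0289 to 0.0331 against 0.0329 to 0.0396). Slc2a4 overlapped with either vector. In CPM, Aldoa, Pgam2, Eno3 and Pkm overlapped between the diets with either vector. As a percent of all counts, Eno3 was lower under ADF without overlap in GFP muscle (1.15 to 1.34 fed, 0.846 to 1.05 under ADF). Pgam2 was so in Crtc2 muscle (0.401 to 0.498 fed, 0.317 to 0.38 under ADF). In GFP muscle 0 of the 10 members passed in either direction with edgeR, where 4.06% of all tested genes passed as higher, 3.06% as lower and 7.12% in either direction. At an unadjusted p under 0.05 there were 4 (Fbp2, Hk1, Hk2 and Pfkm). The share of all genes at that unadjusted cut-off is not given here or below, so such counts are not read as a result. DESeq2 called 1, as higher, and 0 as lower, where it called 11.9% of all genes in either direction. In Crtc2 muscle 1 of 10 passed as higher and 0 as lower, against 6.3% and 4.68% of all genes and 11% in either direction. There 5 had an unadjusted p under 0.05, and DESeq2 called 4 as higher (Fbp2, Hk2, Pfkm and Ldha) and 0 as lower, where it called 17.8% of all genes in either direction. The median log2 fold change of the 10 was 0.17 in GFP muscle and 0.40 in Crtc2 muscle, beside medians of -0.01 and -0.13 over all genes tested.

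Scaling by library totals instead of TMM moved the median of all genes to -0.11 in GFP muscle and -0.43 in Crtc2 muscle. The members' median less that of all genes was then 0.17 and 0.55, beside 0.18 and 0.53 with TMM. Groups that did not overlap were counted as well: in GFP muscle 2 members were higher in every ADF library than in every fed one (Fbp2 and Hk1) and 0 were lower, where 14.3% and 11.3% of all genes separated upward and downward. In Crtc2 muscle 5 separated upward (Slc2a4, Hk2, Pfkm, Fbp2 and Ldha) and 1 downward (Hk1), beside 14.8% and 15.7% of all genes. These counts are of TMM-scaled CPM. As a percent of all counts, Hk2 and Pfkm also separated upward and Eno3 downward in GFP muscle. In Crtc2 muscle Slc2a4 and Hk2 then overlapped and Pgam2 separated downward. The normalization factors were 0.838 to 0.894 in ADF Crtc2 and 0.981 to 1.19 in fed Crtc2 libraries, and a lower factor gives a higher CPM.

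Fbp2 (chromosome 13, 62836877 to 62858422, minus strand, GRCm38) encodes the muscle fructose bisphosphatase. Its levels were 40, 61 and 18.9 CPM in fed GFP replicates 1 to 3 and 94.5, 89.4 and 94.4 CPM in the ADF GFP replicates. In Crtc2 muscle they were 47.5, 25 and 61.6 CPM when fed and 125, 157 and 80.1 CPM under ADF. Every ADF library thus lay above every fed library, with the fed groups spread widely and ADF GFP narrowly. The difference was 2.32-fold in GFP muscle (log2 1.21 ± 0.38, SE, edgeR adjusted p = 0.0667) and 2.70-fold in Crtc2 muscle (1.43 ± 0.38, adjusted p = 0.0215). Calls of Fbp2 moved with the settings. In Crtc2 muscle the call was lost without ADF Crtc2 replicate 1 (adjusted p = 0.0737) or 2 (0.0908) or without fed Crtc2 replicate 1 (0.0707) or 2 (0.073), within a range of 1.49e-06 to 0.0908 over 19 alternatives, while the log2 fold change stayed between 1.14 and 1.74. In GFP muscle 5 of 19 alternatives passed, with adjusted p from 0.000117 to 0.219 and log2 fold changes from 0.88 to 1.62: scaling by library totals, no filter, DESeq2, and leaving out fed GFP replicate 2 or fed Crtc2 replicate 2.

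Slc2a4 (chromosome 11, 69942539 to 69948188, minus strand) is the transporter itself. It stood at 684, 707 and 491 CPM in fed GFP and 886, 622 and 572 CPM in ADF GFP libraries. In Crtc2 muscle the values were 708, 511 and 784 CPM fed and 1062, 785 and 862 CPM under ADF. In CPM the GFP groups overlapped, while in Crtc2 muscle the lowest ADF library lay just above the highest fed one. As a percent of all counts the Crtc2 groups overlapped as well. Neither difference passed: the log2 fold change was 0.14 ± 0.21 in GFP muscle (SE, edgeR adjusted p = 0.801), a value that turned slightly negative without ADF GFP replicate 1 (-0.07) or fed GFP replicate 3, and 0.44 ± 0.21, or 1.35-fold, in Crtc2 muscle (adjusted p = 0.197).

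The hexokinases did not share a pattern. Hk2 (chromosome 6, 82725025 to 82774454, minus strand) stood at 334, 351 and 263 CPM in fed GFP, 499, 401 and 351 CPM in ADF GFP, 320, 243 and 301 CPM in fed Crtc2 and 431, 447 and 368 CPM in ADF Crtc2 libraries. In CPM the highest fed and the lowest ADF library of GFP muscle were level, and the Crtc2 groups separated. As a percent of all counts, Hk2 separated in GFP muscle and overlapped in Crtc2 muscle. Its differences were 1.32-fold in GFP muscle (log2 0.40 ± 0.18, SE, edgeR adjusted p = 0.222) and 1.44-fold in Crtc2 muscle (0.53 ± 0.18, adjusted p = 0.0665), the latter past the threshold with DESeq2 (0.0398, the lowest of a range up to 0.303 over 19 alternatives).

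Hk1 (chromosome 10, 62268855 to 62379908, minus strand) lay on opposite sides of its fed level with the 2 vectors. It stood at 11.5, 15.2 and 9.8 CPM in fed GFP and at 27.2, 23.8 and 21.3 CPM in ADF GFP libraries. In Crtc2 muscle it stood at 12.9, 13.2 and 13.7 CPM when fed and at 11.6, 5.13 and 9.1 CPM under ADF. All 3 ADF libraries were thus above the fed ones with GFP and below them with Crtc2. The log2 fold change was 0.98 ± 0.41 in GFP muscle (SE, edgeR adjusted p = 0.173) and -0.62 ± 0.41 in Crtc2 muscle (adjusted p = 0.374), and neither passed. Sums of markers of other cell types followed Hk1 in part only. Macrophage sums separated upward with Hk1 under ADF in GFP muscle. They also separated between the fed groups, where Hk1 overlapped, and overlapped between the diets in Crtc2 muscle, where Hk1 separated. The 9 macrophage markers summed to 231 to 295 CPM in fed GFP, 301 to 531 in ADF GFP, 115 to 205 in fed Crtc2 and 87.2 to 146 in ADF Crtc2 libraries, with 1 marker at 0 in 1 library, a fed GFP one. The 6 fibroblast markers, none at 0 in any library, summed to 766 to 2044, 1647 to 3473, 581 to 1704 and 794 to 1228 CPM in the same order. The 6 T cell markers summed to 20.3 to 63.2, 14.2 to 52.3, 7.48 to 48.6 and 1.17 to 4.74 CPM, with 3 or 4 of them at 0 in each ADF Crtc2 library. The 8 slow-fibre markers summed to 238 to 543, 250 to 334, 249 to 485 and 148 to 201 CPM, so that ADF Crtc2 lay below every other library. The part of these cells and fibres in the levels of Hk1 was not tested. Hk1 shares 157 exon bases with the antisense gene Hk1os, and whether counting used strand is not given in the sources used here.

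Pfkm (chromosome 15, 98092589 to 98132451, plus strand) stood at 4768, 5566 and 3999 CPM in fed GFP and 7765, 5619 and 5515 CPM in ADF GFP libraries. In Crtc2 muscle the values were 4668, 3895 and 5965 CPM fed and 7217, 7586 and 6614 CPM under ADF. In CPM the GFP groups overlapped by a small margin, and the Crtc2 groups did not overlap. As a percent of all counts the diets did not overlap with either vector. The differences were 1.32-fold (log2 0.40 ± 0.19, SE, edgeR adjusted p = 0.24) and 1.47-fold (0.56 ± 0.19, adjusted p = 0.0591). Of 19 alternatives in Crtc2 muscle, 4 passed, DESeq2 (0.0322) and leaving out ADF GFP replicate 1 (0.0311) or 3 (0.0493) or fed Crtc2 replicate 3 (0.017), within a range of 0.017 to 0.216. Pfkm shares 341 exon bases with Gm26513 and 18 with Senp1.

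Aldoa, Eno3 and Pgam2, the most abundant members per kilobase of exon in fed GFP muscle, overlapped between the diets in CPM and did not pass the test. Aldoa (chromosome 7, 126795234 to 126800751, minus strand) stood at 26592, 31823 and 21185 CPM in fed GFP, 29545, 19424 and 20463 in ADF GFP, 27354, 18574 and 30108 in fed Crtc2 and 33121, 31478 and 29191 in ADF Crtc2 libraries. The ADF Crtc2 libraries lay close together, and the fed Crtc2 libraries were spread widely. Eno3 (chromosome 11, 70657202 to 70662513, plus strand) stood at 12592, 13093 and 9989 CPM in fed GFP, 11824, 7987 and 8032 in ADF GFP, 12412, 8627 and 13299 in fed Crtc2 and 12688, 12899 and 11722 in ADF Crtc2 libraries. Pgam2 (chromosome 11, 5801640 to 5803733, minus strand) stood at 3675, 3081 and 3171 CPM, 3812, 2826 and 2374 CPM, 4486, 3383 and 5074 CPM, and 3782, 4107 and 4258 CPM in the same order of groups. In CPM, Eno3 and Pgam2 overlapped between the diets with either vector, with 2 of 3 ADF GFP libraries lower than every fed GFP one. As a percent of all counts, Eno3 separated downward in GFP muscle and Pgam2 in Crtc2 muscle.

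In GFP muscle the log2 fold changes under ADF were -0.20 ± 0.20 for Aldoa, -0.36 ± 0.19 for Eno3 and -0.14 ± 0.19 for Pgam2 (SE, edgeR adjusted p = 0.689, 0.311 and 0.783). Eno3 passed as lower when libraries were scaled by their totals (-0.47, adjusted p = 0.0255, in a range up to 0.614 over 19 alternatives). In Crtc2 muscle the values were 0.30 ± 0.20, 0.12 ± 0.19 and -0.09 ± 0.19 (adjusted p = 0.395, 0.793 and 0.846), and that of Eno3 turned to -0.15 with library totals. The aldolase reads could be split with near-identical copies: Aldoart1, a retrogene of Aldoa known from testis, held counts equal to 0.989 ± 0.0817% of those of Aldoa in fed GFP, 0.716 ± 0.132% in fed Crtc2, 1.38 ± 0.174% in ADF GFP and 1.27 ± 0.163% in ADF Crtc2 muscle (SD, n = 3).

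At the end of the pathway, Pkm (chromosome 9, 59656368 to 59679375, plus strand) stood at 4496, 4776 and 3575 CPM in fed GFP, 5763, 4429 and 4469 in ADF GFP, 4023, 3563 and 5248 in fed Crtc2 and 5595, 5962 and 4902 in ADF Crtc2 libraries. Fed and ADF libraries overlapped with either vector. Its log2 fold change was 0.19 ± 0.18 in GFP muscle and 0.36 ± 0.18 in Crtc2 muscle (SE, edgeR adjusted p = 0.65 and 0.223). Gene counts do not separate the splice forms of Pkm, which differ between fibres and other cells. Pkm also shares 767 exon bases with Gm49759, a gene of the same strand that is not in the count table. Ldha (chromosome 7, 46841475 to 46855627, plus strand) stood at 2764, 4050 and 2473 CPM in fed GFP, 3994, 3001 and 3072 in ADF GFP, 2768, 2278 and 3634 in fed Crtc2 and 4380, 4392 and 4257 in ADF Crtc2 libraries. In CPM the ADF Crtc2 libraries agreed closely and lay above every other library. As a percent of all counts, fed GFP replicate 2 was higher, at 0.415 beside 0.367 to 0.39 in the ADF Crtc2 libraries. The difference was 1.5-fold in Crtc2 muscle (log2 0.59 ± 0.20, adjusted p = 0.0635), where 5 of 19 alternatives passed in a range of 0.017 to 0.23: DESeq2 (0.0403), no filter (0.0395), and leaving out ADF GFP replicate 1 (0.0459), fed GFP replicate 2 (0.0429) or fed Crtc2 replicate 3 (0.017). In GFP muscle it was 0.12 ± 0.20 (adjusted p = 0.844), and slightly below 0 without ADF GFP replicate 1 (-0.03) or fed GFP replicate 3 (-0.02).

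**Figure D2:**
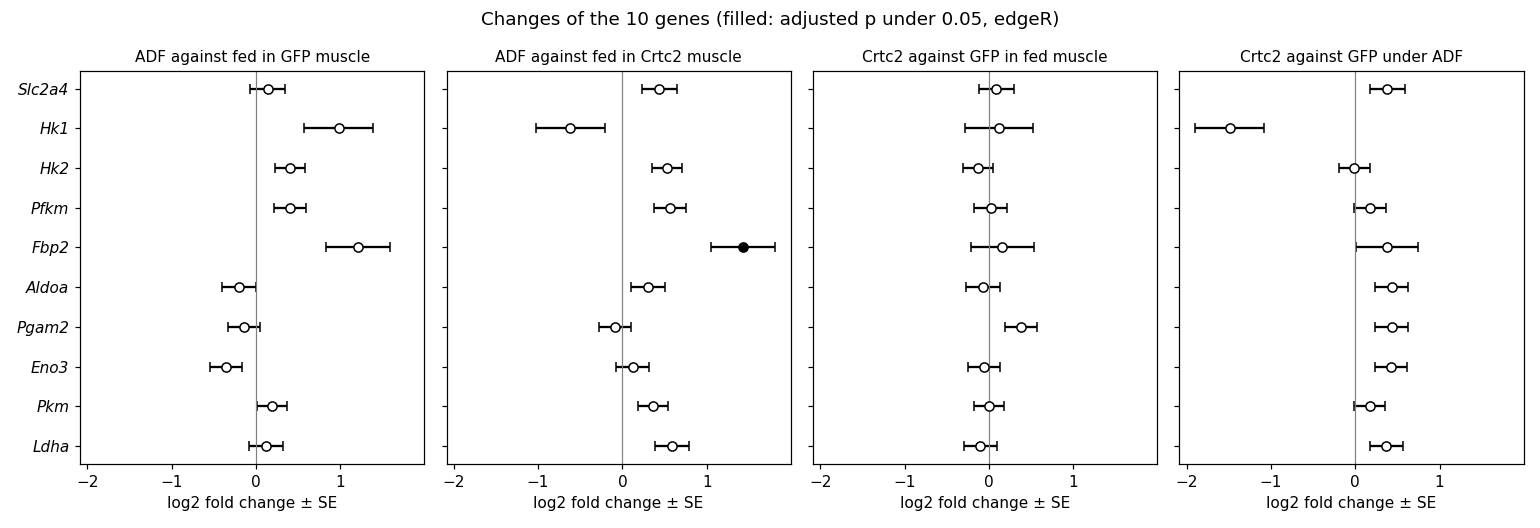
Log2 fold changes of the 10 genes with their standard errors on the x axis, 1 panel for each of 4 comparisons, with filled points for an adjusted p under 0.05. Fbp2 in Crtc2 muscle, at 1.43, is the single filled point, and Hk1 lies at 0.98 and -0.62 in the panels for ADF and at -1.49 in the panel for Crtc2 under ADF.

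The diets were also compared with the vectors averaged, a contrast added after the data were seen that uses the same libraries as the 2 comparisons above. In it Fbp2, Pfkm and Hk2 rose under ADF: Fbp2 2.50-fold (log2 1.32 ± 0.27, SE, edgeR adjusted p = 0.00213), Pfkm 1.39-fold (0.48 ± 0.13, adjusted p = 0.0131) and Hk2 1.38-fold (0.46 ± 0.13, adjusted p = 0.0132). These 3 of 10 stood beside 9.38% of all genes passing as higher, while 0 members passed as lower beside 8.64%, and 18% of genes passed in either direction. DESeq2 also called 3 as higher and 0 as lower, where it called 23.9% of all genes in either direction. Fbp2 and Pfkm passed in all 18 alternatives of this contrast and Hk2 in 17, the exception being scaling by library totals (0.27, adjusted p = 0.0742, the highest of a range from 0.00588). Ldha (0.35 ± 0.14, adjusted p = 0.0894) and Pkm (0.27 ± 0.13, adjusted p = 0.146) did not pass, although both did without fed Crtc2 replicate 3 (0.0256 and 0.0474) and Ldha also did without fed GFP replicate 2 (0.0224), in ranges up to 0.298 and 0.561. Eno3 and Pgam2 were each at -0.12 ± 0.13 (adjusted p = 0.612). With library totals Eno3 and Pgam2 both passed as lower at -0.31 (adjusted p = 0.0175 and 0.0301, in ranges up to 0.866 and 0.905 over 18 alternatives). That setting moved the median of all genes in this contrast to -0.29, from -0.09 with TMM, so both lay near it.

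The second pair of comparisons asks what the Crtc2 vector changed under each diet. In fed muscle no member passed the edgeR test, nor did any other gene tested, Crtc2 among them. The log2 fold changes of the 10 ran from -0.13 ± 0.18 for Hk2 to 0.38 ± 0.19 for Pgam2 (SE), with edgeR adjusted p from 0.877 to 1, a median of 0.01, and 0.01 over all genes. Of the 10, 0 passed in either direction, 0 had an unadjusted p under 0.05 and 0 were called by DESeq2, and of all genes 0% passed with edgeR and 0.521% with DESeq2 in either direction. In CPM every member overlapped between the vectors, while 4.7% of all genes separated upward and 3.84% downward. As a percent of all counts Pgam2 separated, at 0.401 to 0.498 with Crtc2 and 0.316 to 0.385 with GFP.

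Under ADF, Hk1 was lower with Crtc2, at 8.6 ± 3.25 against 24.1 ± 3.01 CPM (SD, n = 3), and its 3 libraries with each vector did not overlap. This was 2.80-fold (log2 -1.49 ± 0.41, SE, edgeR adjusted p = 0.105), a difference that did not pass in the fit of all libraries but passed with DESeq2 (0.00136) and with only the 6 libraries of the comparison (0.0413), in a range up to 0.33 over 19 alternatives. Of the 9 macrophage markers 3 fell in the same comparison, C1qc, Cd68 and Csf1r, and 0 rose, and of the 8 slow-fibre markers 2 fell, Tnni1 and Tnnt1, and 0 rose. Aldoa, Eno3 and Pgam2 were at higher means with Crtc2, by differences that did not pass. Aldoa stood at 31263 ± 1974 against 23144 ± 5568 CPM (log2 0.43 ± 0.20, adjusted p = 0.428), Eno3 at 12436 ± 628 against 9281 ± 2202 CPM (0.42 ± 0.19, adjusted p = 0.41) and Pgam2 at 4049 ± 243 against 3004 ± 735 CPM (0.43 ± 0.19, adjusted p = 0.375).

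In these 3 enzymes ADF GFP replicate 1 lay within the range of the Crtc2 libraries, and replicates 2 and 3, with the low fast-fibre sums given above, lay below them. Ldha, at 4343 ± 74.5 against 3356 ± 554 CPM, was the member that separated upward, and Hk1 the member that separated downward, beside 9.6% and 11.8% of all genes. With edgeR 0 of 10 passed in either direction, where 0.075% of all genes passed as higher, 0.65% as lower and 0.725% in either direction. At an unadjusted p under 0.05 there were 4 members, a count for which the share of all genes is not given and which is not read as a result. DESeq2 called 0 as higher and 1 as lower, where it called 4.5% of all genes in either direction. The members' median was 0.38 beside -0.01 over all genes. With library totals these became 0.18 and -0.22, a difference of 0.40 against 0.39 with TMM.

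The interaction asks whether the response to Crtc2 differed between the diets. It ran from -1.61 ± 0.57 for Hk1 (SE, edgeR adjusted p = 0.537) to 0.50 ± 0.29 for Aldoa (adjusted p = 0.705), with a median of 0.19 beside -0.08 over all genes. None of the 10 passed with edgeR or with DESeq2, and 1, Hk1, had an unadjusted p under 0.05. Of all genes 0% passed with edgeR and 1.04% with DESeq2. A difference between the diets' responses to Crtc2 was therefore not detectable in any member with 3 libraries a group. Crtc2 RNA itself stood at 58.2 to 77.9 CPM in fed Crtc2 and 31.4 to 42.8 CPM in ADF Crtc2 libraries. The responses compared were thus to unlike levels of Crtc2, and the part of this was not tested.

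Since the abundant members moved together from library to library, ratios of counts within a library were computed, which no scaling between libraries touches. The ratios were chosen after the data were seen and carry no test. Fbp2 counts per 1000 Pfkm counts, the reverse over the forward enzyme of 1 step, were 8.4, 11 and 4.74 in fed GFP, 12.2, 15.9 and 17.1 in ADF GFP, 10.2, 6.41 and 10.3 in fed Crtc2 and 17.3, 20.7 and 12.1 in ADF Crtc2 libraries. The ratio was thus higher in every ADF library than in every fed one, by 1.87 times in GFP and 1.86 times in Crtc2 muscle. Pfkm counts as a percent of Aldoa counts were 17.9, 17.5 and 18.9 in fed GFP, 26.3, 28.9 and 26.9 in ADF GFP, 17.1, 21 and 19.8 in fed Crtc2 and 21.8, 24.1 and 22.7 in ADF Crtc2 libraries. This ratio separated the diets with either vector, 1.51 times in GFP and 1.18 times in Crtc2 muscle, with small spread within groups, and under ADF it was lower with Crtc2 in every library.

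The ratio of Hk2 to Hk1 counts was 28.9, 23.1 and 26.8 in fed GFP, 18.3, 16.8 and 16.5 in ADF GFP, 24.8, 18.5 and 21.9 in fed Crtc2 and 37.2, 87 and 40.5 in ADF Crtc2 libraries. It was lower under ADF in every GFP library and higher in every Crtc2 library, with the value of 87 resting on the low Hk1 count of ADF Crtc2 replicate 2. Pgam2 counts as a percent of those of Eno3, the next enzyme, were 29.2, 23.5 and 31.7 in fed GFP and 36.1, 39.2 and 38.2 in fed Crtc2 libraries, a separation of 1.34 times, whereas the ADF groups overlapped at 32.4 ± 2.92 and 32.7 ± 3.33 (SD, n = 3). Eno3, the muscle enolase, stood to Eno1, the enolase of most other cells, at 99.9 ± 26.7 in fed GFP, 120 ± 32.3 in fed Crtc2, 106 ± 23.1 in ADF GFP and 247 ± 65.7 in ADF Crtc2 muscle, and the last group lay above the other ADF group and fed Crtc2 without overlap. The ratio of Ldha to Ldhb, the subunit of oxidative tissue, overlapped in every comparison.

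**Figure D3:**
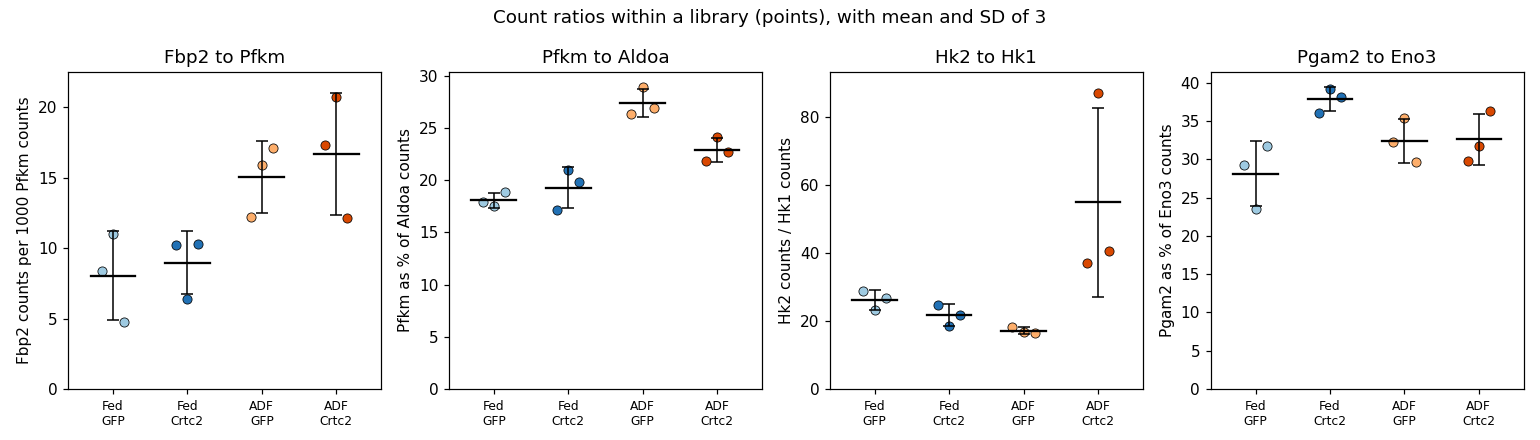
Ratios of counts within a library by group, with the mean and the SD of 3, on axes that start at 0: Fbp2 per 1000 Pfkm, Pfkm as a percent of Aldoa, Hk2 over Hk1, and Pgam2 as a percent of Eno3. Pfkm to Aldoa lies at 17.1 to 21 in the fed libraries and at 21.8 to 28.9 in the ADF libraries.

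Of 32 other genes of glucose transport and glycolysis, 31 were in the table and 29 were tested. In GFP muscle 1 of the 29 rose under ADF and 1 fell, where 4.06% and 3.06% of all genes did so, with a median log2 fold change of 0.08 beside -0.01 over all genes. In Crtc2 muscle 4 rose and 2 fell, where 6.3% and 4.68% of all genes did so, with a median of 0.19 beside -0.13. Tbc1d1, which holds GLUT4 vesicles inside the fibre until it is phosphorylated, rose with either vector, from 74.1 ± 37.2 to 217 ± 55.4 CPM in GFP muscle (SD, n = 3, 2.93-fold, log2 1.55 ± 0.31, edgeR adjusted p = 0.00466) and from 71.2 ± 7.46 to 265 ± 21.6 CPM in Crtc2 muscle (3.73-fold, 1.90 ± 0.31, adjusted p = 0.000627). Pfkfb2, which makes and breaks down the main activator of phosphofructokinase, fell with either vector, from 30.1 ± 3.68 to 5.32 ± 2.96 CPM (5.67-fold, -2.50 ± 0.44, adjusted p = 0.000957) and from 30.9 ± 14.8 to 6.55 ± 0.808 CPM (4.72-fold, -2.24 ± 0.44, adjusted p = 0.00156). Both calls were made in all 19 alternatives of either comparison.

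The rest of those that passed did so in Crtc2 muscle. Slc16a3, the lactate exporter MCT4 of fast fibres, rose from 369 ± 102 to 804 ± 35.4 CPM (2.18-fold, log2 1.13 ± 0.22, edgeR adjusted p = 0.00143), and in GFP muscle stood at 389 ± 72.7 and 635 ± 173 CPM (0.71 ± 0.22, adjusted p = 0.05, not below the threshold, and past it in 7 of 19 alternatives, in a range of 0.0133 to 0.305). Pgk1, phosphoglycerate kinase, rose from 357 ± 64.2 to 716 ± 36.8 CPM (2.00-fold, 1.00 ± 0.20, adjusted p = 0.00193), beside 0.56 ± 0.20 in GFP muscle (adjusted p = 0.104, and 0.00871 without fed GFP replicate 2, in a range up to 0.333). Gapdh, a gene with many processed copies whose count is therefore uncertain, rose from 545 ± 84.8 to 1036 ± 72.2 CPM (1.90-fold, 0.93 ± 0.18, adjusted p = 0.00149), and in GFP muscle was at 0.08 ± 0.18 (adjusted p = 0.898), a value that turned to -0.02 with library totals.

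Eno1 fell in Crtc2 muscle, from 97.1 ± 13.5 to 52.3 ± 11.2 CPM (1.86-fold, log2 -0.89 ± 0.24, edgeR adjusted p = 0.0184), a call lost without ADF Crtc2 replicate 1 (0.117) or fed Crtc2 replicate 3 (0.0648). In GFP muscle it was at -0.53 ± 0.24 (adjusted p = 0.218). For Eno1 too, the part of the cell types whose markers are given for Hk1 was not tested. The differences between the vectors in these responses were not past the threshold with edgeR: 0 of the 29 passed the interaction, as did 0% of all genes. DESeq2 called 1, as lower, where it called 1.04% of all genes in either direction. At an unadjusted p under 0.05 there were 2, a count that is not read as a result. Gpi1, the isomerase between hexokinase and phosphofructokinase, was at 0.17 ± 0.17 in GFP and 0.32 ± 0.17 in Crtc2 muscle (edgeR adjusted p = 0.683 and 0.258). Tpi1, triose phosphate isomerase, was at 0.04 ± 0.18 and 0.36 ± 0.18 (adjusted p = 0.952 and 0.235), the former turning to -0.07 with library totals. Slc2a1, the transporter GLUT1 of most cells, was at 1.07 ± 0.53 and 0.17 ± 0.52 (adjusted p = 0.267 and 0.911), the latter turning to -0.11 with library totals. With the vectors averaged 5 of the 29 rose under ADF and 2 fell, beside 9.38% and 8.64% of all genes, and these were the 6 that passed in Crtc2 muscle and Slc16a1, the lactate transporter MCT1. Slc16a1 stood at 48.8 ± 7.3 and 51.8 ± 11.4 CPM in fed GFP and fed Crtc2 muscle and at 66.9 ± 15.5 and 74.1 ± 0.797 CPM in ADF GFP and ADF Crtc2 muscle (SD, n = 3). Its averaged difference was 0.49 ± 0.17 (SE, edgeR adjusted p = 0.0461), past the threshold in 5 of 18 alternatives, with adjusted p from 0.028 to 0.294, and lost with library totals (0.28), when any single ADF Crtc2 library was left out, and without ADF GFP replicate 1 or 2, fed GFP replicate 2 or 3, or fed Crtc2 replicate 1 or 3. Between the vectors 0 of the 29 passed with edgeR under either diet, where 0% of all genes passed in fed and 0.725% in ADF muscle. DESeq2 called 0 and 1 of the 29, where it called 0.521% and 4.5% of all genes in either direction. At an unadjusted p under 0.05 there were 1 and 5, counts that are not read as a result.

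**Figure D4:**
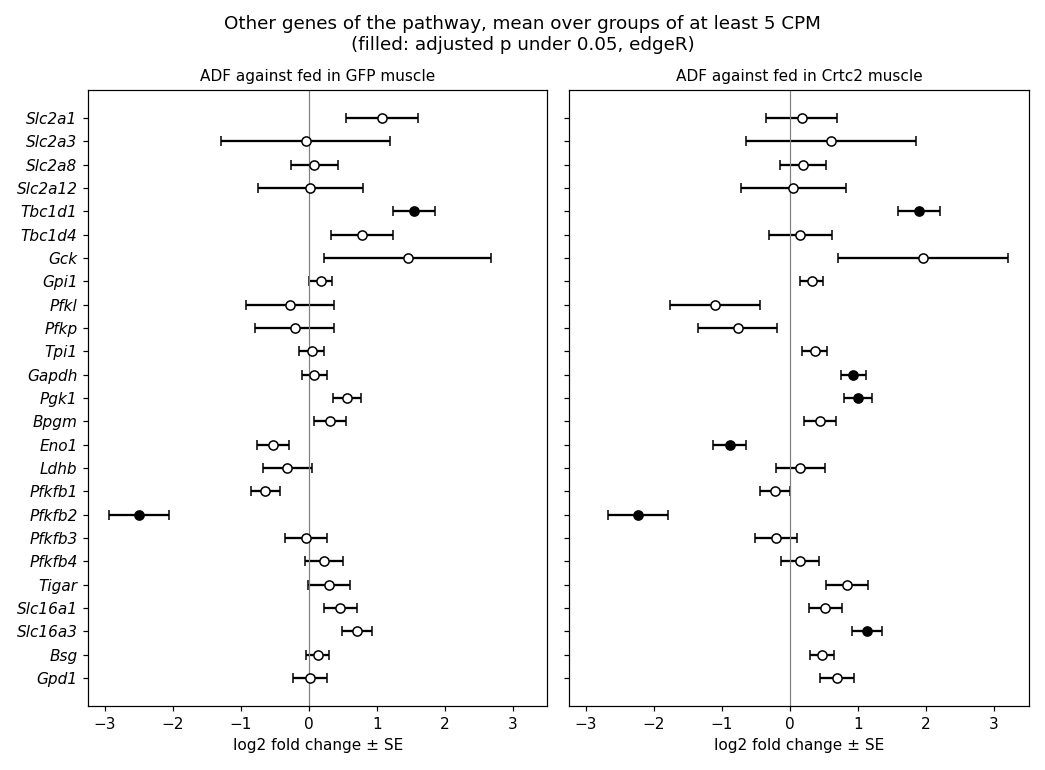
Log2 fold changes with standard errors under ADF, in GFP muscle on the left and Crtc2 muscle on the right, for those 25 other pathway genes whose mean reached 5 CPM, filled where the adjusted p was under 0.05. Tbc1d1 is filled on the right-hand side of 0 in both panels at 1.55 and 1.90, and Pfkfb2 on the left-hand side at -2.50 and -2.24.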

How the data were processed

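RNA of 12 libraries was sequenced, and the table the authors deposited gives whole-number read counts by Ensembl gene, per the file headers. Tools named in the submitters' processing notes are HISAT2 2.0.5, Subread 1.6.1 with featureCounts, SAMtools 1.7 and DESeq2 1.18.1, and the build is GRCm38. Even numbers made up 68.9 to 74.7% of a library's counts of 2 to 21, so a low count may stand for fewer fragments. The test was that of edgeR 4.0.16 (R 4.3.3): TMM scaling, filterByExpr, a quasi-likelihood fit with robust spread over all 12 libraries and 4 group means, checked on simulated data, with p-values adjusted by Benjamini-Hochberg over 16007 genes (threshold 0.05). Alternatives were DESeq2 1.42.0, other scalings and filters, a replicate block, only the libraries compared, and each library left out. An exact test of 3 against 3 cannot go below p = 0.1. CPM use TMM-scaled library sizes. Gene positions and lengths are from GENCODE mouse release 21, which held 22582 of the 22607 genes. The members, the 32 other pathway genes and the markers were chosen with earlier results of these data known. All members are named, with other pathway genes past the threshold, Gapdh, Gpi1, Tpi1, Pgk1 and Slc2a1, and partners in a ratio. Marker lists also covered endothelial, adipocyte, red blood, Schwann and satellite cells, and gave at most 2 of their genes past the threshold in any comparison.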

Additional observations from a re-analysis of the deposited data

Results flagged for a closer look

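Hk1 lay on opposite sides of the fed level under ADF with GFP and with Crtc2. All 3 ADF libraries lay above all 3 fed ones in GFP muscle (21.3 to 27.2 against 9.8 to 15.2 CPM) and all 3 lay below them in Crtc2 muscle (5.13 to 11.6 against 12.9 to 13.7 CPM). The difference between the responses was -1.61 ± 0.57 on the log2 scale (SE, edgeR interaction test), which did not pass after adjustment over all genes (adjusted p = 0.537, and 0.0765 to 0.799 over 18 alternatives). Macrophage marker sums were highest in the same ADF GFP libraries, at 301 to 531 CPM, and were 87.2 to 146 CPM in the ADF Crtc2 libraries, and their part in the result was not tested.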

How the results depend on the processing

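Of 1016 values recomputed under another setting, 941 kept their direction and their side of the threshold, 31 newly passed it, 21 no longer passed and 23 turned direction, the last with main values of at most 0.17 in size on the log2 scale. Fbp2, Pfkm and Hk2 kept their direction under ADF in all alternatives. Of the 10 members, the number passing as higher under ADF in GFP muscle was 0, and 1 with library totals, without a filter or with DESeq2, and 0 to 1 when single libraries were left out, while 1 passed as lower with library totals (Eno3). In Crtc2 muscle it was 1, and 2 without a filter, 4 with DESeq2 and 0 to 3 when single libraries were left out. Of all genes, DESeq2 called 11.9% in GFP and 17.8% in Crtc2 muscle in either direction, against 7.12% and 11% with edgeR. Such shares are not given here for the other settings, so these counts are not read as a result about the members. Under ADF, 0 members passed as lower with Crtc2, and 1 with DESeq2 and with only the libraries compared (Hk1). There DESeq2 called 4.5% of all genes in either direction, against 0.725% with edgeR. With the vectors averaged 3 passed as higher, 3 to 5 when single libraries were left out, the 5 without fed Crtc2 replicate 3. In that contrast 2 passed as lower with library totals, against 0, beside a median of all genes of -0.29 against -0.09 with TMM.

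The replicate numbers of the labels did not pair the libraries: correlations of their deviations were -0.04 to 0.13 (median 0.01) over 18 pairs of the same number and -0.12 to 0.05 over 36 others. With a replicate block 0 members passed as higher under ADF in Crtc2 muscle, against 1, and Fbp2 stood at 1.35 (adjusted p = 0.0531).

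The values that turned were as follows, and the cause was not tested. With library totals Gapdh in GFP muscle stood at -0.02, Tpi1 at -0.07, and in Crtc2 muscle Eno3 at -0.15 and Slc2a1 at -0.11. With a mean of at least 10 CPM Gapdh stood at -0.02 and Tpi1 at -0.06, and with median-of-ratios scaling or DESeq2 Tpi1 stood at -0.00. When single libraries were left out, the log2 fold changes in GFP muscle ranged from -0.07 to 0.27 for Slc2a4, -0.35 to 0.01 for Pgam2, -0.03 to 0.32 for Ldha, -0.13 to 0.14 for Tpi1 and -0.02 to 0.25 for Gapdh, and those in Crtc2 muscle from -0.24 to 0.04 for Pgam2, -0.05 to 0.24 for Eno3 and -0.20 to 0.62 for Slc2a1.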
